A study of Brassica napus with 2 samples.

Results

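The basic helix-loop-helix (bHLH) transcription factors were followed in whole seeds of *Brassica napus* taken 26 days after pollination from the yellow-seeded line Cy2Y and the brown-seeded line Cy2B. Cy2Y carries the dominant yellow allele (genotype *YY*) and arose by mutation within Cy2B (*yy*), so both form a near-isogenic pair, grown in the field. 1 library of polyA RNA was sequenced per line, and embryo, endosperm and seed coat were not separated. Members were chosen by annotation: unigenes (assembled transcripts) with an assigned *B. napus* gene whose best Swiss-Prot match was named as a bHLH factor, a MYC or PIF factor, EGL1, GLABRA 3 or SPATULA. This gave 141 of the 50366 unigenes in the table, assigned to 123 genes and carrying 77 different protein names.

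A bHLH factor binds DNA, often at E-box motifs, through a basic stretch and pairs with a second protein through its helix-loop-helix, so its activity depends on which partners are present. In Arabidopsis seeds, bHLH factors work with MYB proteins and the WD40 protein TTG1 to switch on pigment and mucilage genes in the seed coat, while others act in the endosperm, in light and hormone responses and in the divisions that make stomata. The roles given below are those known from Arabidopsis for the protein of the same name. *TT8*, the bHLH regulator of seed coat tannins, was not counted among the members. Its unigene comp51450_c0 had 437 reads in yellow against 458 in brown seeds, a ratio of 0.968 (0.847 to 1.11). The authors reported none of the *TT8* orthologs as transcribed in these seeds. Why this unigene had reads was not tested.

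The rounded reads summed to 23236592 in yellow and 23575447 in brown seeds. For each unigene, the share of reads in the yellow and in the brown library was compared by Fisher's exact test (two-sided), and p-values were adjusted by the Benjamini-Hochberg method over the whole table. Called unigenes were those for which the adjusted p was under 0.05 and the ratio of yellow over brown, with reads scaled to the library totals, was more than 2-fold in either direction. With 1 library per line there is no replicate check: the test sets one library against another, which is not a comparison of lines, and the ranges in parentheses after ratios are 95% intervals for counting error alone. For a library without a read, 3 reads were put in to bound the ratio. Reads and ratios compare a unigene with itself, while RPKM (reads scaled to transcript length and library total) compares levels between unigenes. In whole seeds, fewer cells of a type and less RNA per cell cannot be told apart. The tissue label was checked against storage proteins, and these differed strongly between the libraries: napin unigenes summed to 22558 reads in yellow against 3406 in brown seeds (2 of 3 called higher), cruciferins to 900 in yellow and 110 in brown seeds (4 of 6 called higher and 1 lower) and oleosins to 31214 in yellow and 10352 in brown seeds (11 of 21 called higher and 1 lower). Their part in the differences below was not tested.

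As a family, the bHLH factors were transcribed at a low level and to nearly the same extent in both libraries. Their reads summed to 28132 in yellow seeds (0.121% of the library) and 28114 in brown seeds (0.119%), and the ratio of the sums was 1.02 (0.999 to 1.03). The median RPKM of the 141 unigenes was 3.19 in yellow and 2.83 in brown seeds, against 5.05 in yellow and 4.93 in brown seeds over all 28771 unigenes with an assigned gene. Only 24 exceeded an RPKM of 10 in both libraries, while 31 stayed under 1 in both and 86 lay between. At least 1 read was found in both libraries for 122 unigenes. Another 10 had no read in yellow and from 2 to 13 reads in brown seeds, and 9 had from 2 to 7 reads in yellow and none in brown seeds.

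The most abundant member was *bHLH155* comp54850_c0 on A05 (6526900 to 6530335), a relative of the vascular regulator LONESOME HIGHWAY, with an RPKM of 43.1 in yellow and 38.4 in brown seeds (ratio 1.12, 1.06 to 1.19). *bHLH137* comp48353_c0 on C03 (8259734 to 8261257) followed at 29.7 in yellow and 42.3 in brown seeds, the highest level of any member in the brown library. Its ratio of 0.700 (0.649 to 0.756) came from 1146 reads in yellow against 1660 in brown seeds and had an adjusted p of 5.78e-19 by Fisher's exact test, short of the 2-fold threshold. *bHLH95* comp42404_c0 on A06 (1869059 to 1871092), known as ZHOUPI in the endosperm, stood at 23.0 in yellow and 32.4 in brown seeds. So the leading member differed little between the libraries, whereas the next pair was lower in yellow seeds by less than 2-fold.

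*bHLH49* comp52129_c1, one of a class that promotes cell elongation, had an RPKM of 25.1 in yellow and 23.2 in brown seeds. *bHLH7* comp51326_c0, in the class of the root hair LRL factors, had 24.9 in yellow and 22.1 in brown seeds. *bHLH144* comp51545_c0 on A07, a relative of SAC51, had 25.6 in yellow and 18.4 in brown seeds (ratio 1.39, 1.28 to 1.52). In these 3 unigenes the level in the yellow library was above that in the brown by less than 2-fold, and *bHLH49* did not pass the adjusted p (0.172 by Fisher's exact test). *bHLH113* comp44644_c0 on C05 went the other way, with 19.6 in yellow and 26.3 in brown seeds (ratio 0.744, 0.675 to 0.820). The jasmonate repressors *bHLH3* comp53880_c0 and *bHLH13* comp51197_c1 had ratios whose intervals included 1, the first at 19.0 in yellow and 19.2 in brown seeds and the second at 18.0 in yellow and 18.7 in brown seeds. *bHLH60* comp48320_c0 had 17.9 in yellow and 19.2 in brown seeds, and the iron response factor *bHLH34* comp51891_c0 had 15.7 in yellow and 18.0 in brown seeds. *bHLH68* comp51823_c0 closed the group of 12 at 16.1 in yellow and 15.7 in brown seeds. These 12 unigenes held 48.1% of the bHLH reads in yellow and 49.8% in brown seeds, and none of them was called. The annotation of a few unigenes is uncertain, since the title of their best NR hit named another protein. That of comp51326_c0 was a nucleoside triphosphate hydrolase and not a bHLH factor. Among less abundant unigenes, that of *bHLH155* comp55236_c1 was a protein kinase. Those of *bHLH155* comp50583_c0 and *bHLH157* comp51951_c0 were titled as related to a protein kinase.

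**Figure D1:**
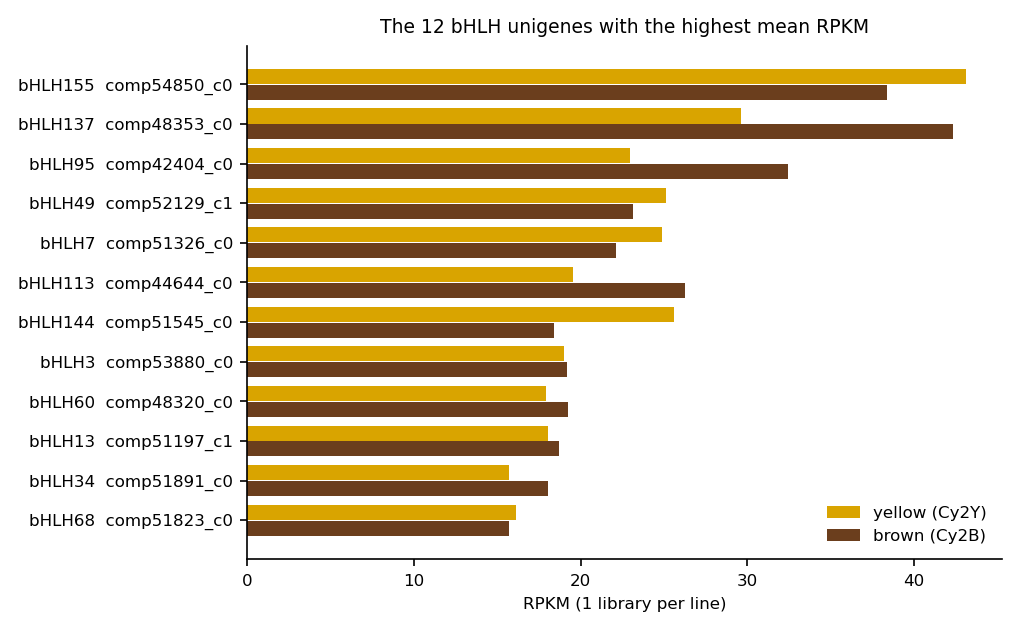
RPKM in yellow (upper bar) and brown (lower bar) seeds of the 12 bHLH unigenes with the highest mean RPKM, 1 library per line and so without error bars. *bHLH155* leads in yellow seeds at 43.1 and *bHLH137* in brown seeds at 42.3, and every pair lies within 2-fold.

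Of the 141 unigenes, 5 were called higher in yellow seeds (3.55%) and 6 lower (4.26%), and 130 were not called. Among all unigenes with an assigned gene, 2.69% were called higher and 1.32% lower (over the whole table, 3.28% higher and 1.47% lower). The share called higher was therefore near the background, and the share called lower rests on 6 unigenes of 5 genes, of which 5 had 43 reads or fewer over both libraries. With at least 100 reads, a minimum chosen after seeing the data, 76 members remained, with 4 called higher and 1 lower. The share called among all unigenes with as many reads was not counted, so these counts cannot be set against a background. Among the 107 members with 20 or more reads in all, 5 were more than 2-fold higher and 4 more than 2-fold lower, against 3.42% higher and 2.04% lower among unigenes with an assigned gene and as many reads. The median log2 ratio of these 107, with 1 read added per library, was 0.02 with quartiles of -0.20 and 0.34, against -0.01 with quartiles of -0.19 and 0.19 for all unigenes with an assigned gene and at least 20 reads. The other 34 members had too few reads for such a ratio.

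**Figure D2:**
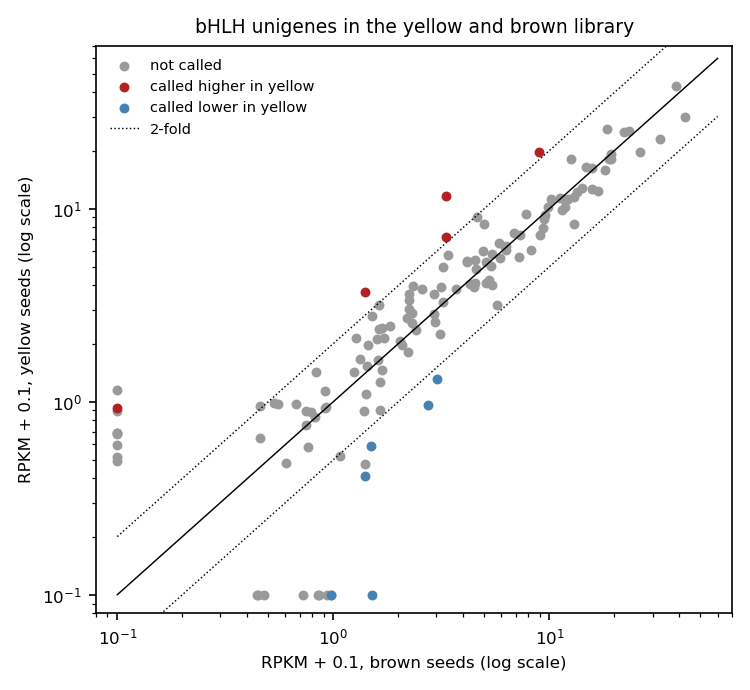
RPKM of the 141 bHLH unigenes in yellow seeds (vertical axis) and brown seeds (horizontal axis), on log scales with 0.1 added, 1 point per unigene. Most points lie between the dotted 2-fold lines, and the 5 unigenes called higher and 6 called lower stand outside them at RPKM under 20 in both libraries.

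The clearest single difference was that of *bHLH71*, which was higher in yellow seeds. Its unigene comp45384_c0, assigned to a gene on C07 (26065780 to 26067447), had 372 reads in yellow against 105 in brown seeds, an RPKM of 11.5 in yellow and 3.21 in brown seeds. The ratio was 3.60 (2.89 to 4.51), with an adjusted p of 4.57e-35 by Fisher's exact test. It was the only member still called by edgeR's exact test when a biological coefficient of variation of 0.2 was assumed (adjusted p = 0.00806), under which 0.518% of unigenes with an assigned gene were called higher and 0.136% lower. bHLH71 is known to bind FAMA, the bHLH factor of the guard cell lineage. 2 short unigenes of a second *bHLH71* gene on A09 had 33 reads together in yellow against 20 in brown seeds, a ratio of 1.67 (0.933 to 3.08) that counting error does not separate from 1.

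*bHLH93*, another known partner of FAMA, was higher in yellow seeds in both unigenes found. The first, comp45781_c0 on A06 (17059746 to 17061600), had 611 reads in yellow against 280 in brown seeds, a ratio of 2.21 (1.92 to 2.56) with an adjusted p of 2.62e-28 by Fisher's exact test. The second, comp38203_c0, on sequence without a chromosome, had 95 reads in yellow against 44 in brown seeds, a ratio of 2.19 (1.52 to 3.21) with an adjusted p of 0.000177 by the same exact test. The 2 genes thus gave almost the same ratio at different levels. With an assumed coefficient of variation of 0.2 in edgeR's exact test, neither was called (adjusted p = 0.300 and 0.537).

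These called unigenes fell in the same class as grouped here, and the classes were chosen with earlier results of these data known. The values of the class are therefore a description and not a test. The factors related to the stomatal regulators SPEECHLESS, FAMA and ICE1 were represented by 12 unigenes of 10 genes, all with at least 20 reads, and 10 of the 12 had more scaled reads in yellow seeds. Their reads summed to 2222 in yellow and 1387 in brown seeds, a ratio of 1.63 (1.52 to 1.74), and their median log2 ratio was 0.78, against 0.01 over the other 95 members with at least 20 reads. Among all unigenes with an assigned gene, 2.69% were called higher, 1.32% lower, and 8.2% were higher at the adjusted p within 2-fold. In the class, 3 were called higher and none lower, and 2 more passed the adjusted p but not the fold. *bHLH57* comp46334_c0 was just short of it, with 286 reads in yellow against 147 in brown seeds (ratio 1.97, 1.61 to 2.43), and *bHLH94* comp46882_c0 had 163 in yellow and 96 in brown seeds (ratio 1.72, 1.33 to 2.24). The remaining 5 unigenes above 1 were those of *bHLH61*, *bHLH99* and the A09 gene of *bHLH71*, with ratios from 1.36 to 2.03 and intervals that included 1. The exceptions were *bHLH67* comp45238_c0, with 303 reads in yellow against 355 in brown seeds (ratio 0.866, 0.740 to 1.01), and *bHLH70* comp44156_c0, with 235 in yellow and 255 in brown seeds (ratio 0.935, 0.780 to 1.12). The class thus held 3 of the 4 unigenes that were called higher with reads in both libraries, and also a pair of members whose intervals included 1.

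**Figure D3:**
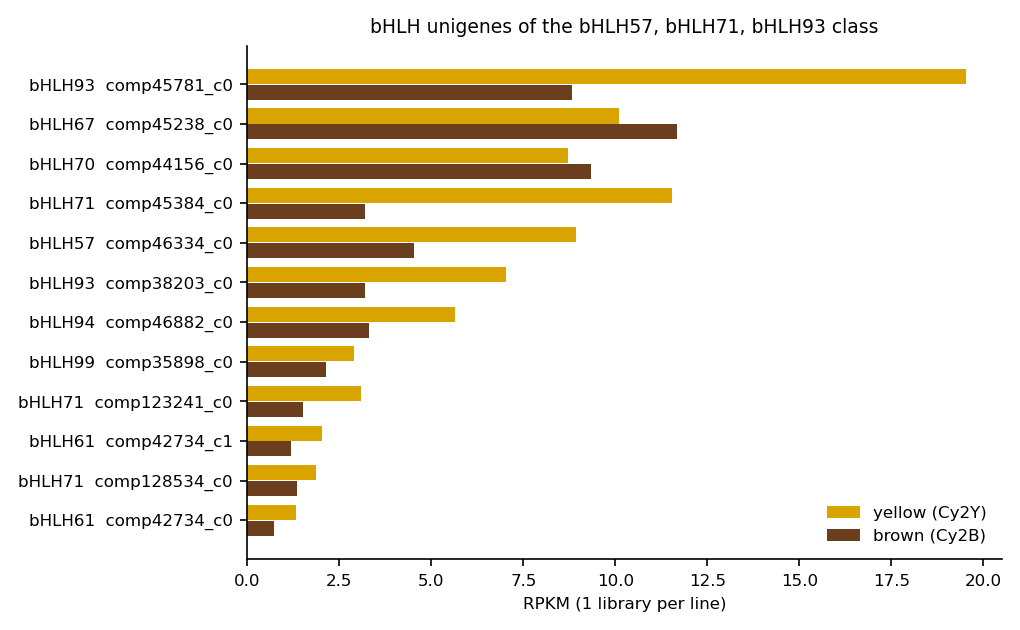
RPKM in yellow (upper bar) and brown (lower bar) seeds of the 12 unigenes of the *bHLH57*, *bHLH71* and *bHLH93* class, 1 library per line and so without error bars. The yellow bar is the longer in 10 of the 12, with *bHLH71* comp45384_c0 at 11.5 in yellow and 3.21 in brown seeds, and is the shorter for *bHLH67* and *bHLH70*.

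Other relatives that Swiss-Prot names by function, and that the choice of members therefore left out, did not move as one. *SPEECHLESS* comp51760_c0, which starts the stomatal lineage, had 139 reads in yellow against 80 in brown seeds (ratio 1.76, 1.33 to 2.35, adjusted p = 0.000592 by Fisher's exact test). *SCREAM2* comp39199_c0, its dimer partner, had 143 in yellow and 81 in brown seeds (ratio 1.79, 1.35 to 2.38, adjusted p = 0.000315 by the same exact test). An *ICE1* unigene went the other way, comp48841_c1, with 113 reads in yellow against 182 in brown seeds (ratio 0.630, 0.494 to 0.801, adjusted p = 0.00135 by Fisher's exact test). A second *SCREAM2* unigene, comp38085_c0, had 189 reads in yellow against 197 in brown seeds. *ICE1* comp54574_c0, far more abundant than any member with an RPKM of 172 in yellow and 176 in brown seeds, gave a ratio of 0.980 (0.960 to 1.00). *FAMA* itself had 2 fragments with 3 and 2 reads in yellow and none in brown seeds. Over all 24 such unigenes, from *ICE1* to *BEE1*, none was called in either direction by Fisher's exact test at the 2-fold threshold. The median log2 ratio of the 18 with at least 20 reads was 0.01. This list also holds factors outside the stomatal lineage, such as *SAC51* and *LHW*.

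The factors of the light response held 1 called member, *PIF5*. Phytochrome-interacting factors (PIFs) promote growth in the dark and are degraded when light activates the phytochromes. *PIF5* comp48035_c0 on A09 (27043077 to 27044829) had 135 reads in yellow against 50 in brown seeds, an RPKM of 3.58 in yellow and 1.30 in brown seeds. The ratio was 2.74 (1.97 to 3.87), with an adjusted p of 3.5e-09 by Fisher's exact test and 0.175 by edgeR's exact test with an assumed coefficient of variation of 0.2. *PIF4*, its closest relative, was seen only as 2 fragments of a gene on C03 with 6 reads together in yellow and none in brown seeds (adjusted p = 0.0773 by Fisher's exact test on reads summed per gene). *PIF7* likewise had 6 reads in yellow and none in brown seeds.

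None of the other PIF relatives was called. *PIF3* on C08 had 86 reads in yellow against 71 in brown seeds over its 2 unigenes, comp43947_c1 and comp43947_c0, a ratio of 1.23 (0.887 to 1.71). *PIF1*, which restrains germination in the dark, had 11 reads in each library in comp6791_c0. *SPATULA*, a regulator of carpel growth and of germination in the cold, had 21 reads in each library over its 2 fragments, 12 of them in each in comp25322_c0. *bHLH56* comp50155_c1 had 70 reads in yellow against 73 in brown seeds. *PIF6* comp53872_c1 had 40 reads in yellow against 39 in brown seeds, whereas *PIF6* comp51766_c0 had 524 in yellow and 665 in brown seeds (ratio 0.800, 0.712 to 0.898), but the best NR hit of this 3144 bp unigene was an SNF7 family protein. Over the 13 unigenes of this class the summed ratio was 0.985 (0.898 to 1.08) and the median log2 ratio of the 8 with at least 20 reads was 0.04. *UNE10* comp36665_c0, a PIF relative that is named by function and so no member, had 38 reads in yellow against 67 in brown seeds (ratio 0.575, 0.376 to 0.869). Of 8 phytochrome unigenes, 1 was called, a *PHYTOCHROME A* fragment, comp310982_c0, with 10 reads in yellow and none in brown seeds, while the long *PHYTOCHROME A* unigene comp54787_c0 had 1288 in yellow and 1363 in brown seeds.

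Of the jasmonate factors, *bHLH28* was the only one called. MYC2 and MYC4 activate jasmonate responses, and bHLH3 and bHLH13 compete with them as repressors. TIFY proteins of the JAZ group bind and silence the MYC factors until the hormone arrives. *MYC2* comp48672_c0 on A05 had 557 reads in each library, a ratio of 1.02 (0.901 to 1.14). The second *MYC2* gene, on C08, was broken into 5 fragments with 33 reads together in yellow against 49 in brown seeds, a ratio of 0.683 (0.426 to 1.08), and the longest of them, comp30008_c1, had 14 in yellow and 19 in brown seeds. Its fragment comp30008_c0 had 14 in yellow and 15 in brown seeds. *MYC4* on A01 had 140 reads in yellow against 112 in brown seeds over comp41924_c0 and comp36659_c0, a ratio of 1.27 (0.982 to 1.64). None of these intervals excluded 1.

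Among the repressors, *bHLH3* comp53880_c0 had 1426 reads in yellow against 1461 in brown seeds, and the second *bHLH3* gene, on A03, had 139 in yellow and 127 in brown seeds over comp36207_c0 and comp38217_c0. *bHLH13* had 571 reads in yellow against 601 in brown seeds in comp51197_c1 and 227 in yellow and 220 in brown seeds in comp51197_c0. The ratios of these genes differed from 1 by less than their counting error. *bHLH28* comp190884_c0 on C07 (26261332 to 26262147), a relative of MYC2 also known as MYC5, was lower, with 11 reads in yellow against 32 in brown seeds (ratio 0.349, 0.159 to 0.710, adjusted p = 0.0161 by Fisher's exact test). The class as a whole had a summed ratio of 0.997 (0.948 to 1.05). None of 20 TIFY unigenes was called by Fisher's exact test at the 2-fold threshold, and the median log2 ratio of the 16 with at least 20 reads was -0.29. The lowest of those with over 100 reads was *TIFY 11A* comp47082_c0, with 488 reads in yellow against 924 in brown seeds (ratio 0.536, 0.479 to 0.599). This unigene, *TIFY 10A* comp48221_c0, *TIFY 6B* comp46567_c0 and *TIFY 5A* comp42300_c0 were lower at an adjusted p under 0.05 by Fisher's exact test. No TIFY unigene was higher at it. Over all unigenes with an assigned gene, 10.9% were higher and 10.6% lower at it.

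The partners of MYB proteins in epidermal and pigment control were few. *EGL1* comp52422_c0 on C09 (9318254 to 9322757), a factor of anthocyanin and mucilage genes that overlaps *TT8* in function, had 252 reads in yellow against 196 in brown seeds. Its ratio was 1.30 (1.08 to 1.58), with an adjusted p of 0.037 by Fisher's exact test. *MYC1* comp52642_c0, which acts in trichome formation, had 225 reads in yellow against 146 in brown seeds, a ratio of 1.56 (1.26 to 1.94) with an adjusted p of 0.000333 by the same exact test. Both passed the adjusted p and neither the fold. *GLABRA3*, the trichome factor, was found in 2 fragments of 1 gene that pointed in different directions: comp41346_c0 had 17 reads in yellow against 28 in brown seeds, and comp32460_c0 had 8 in yellow and 4 in brown seeds. Summed, they gave 0.793 (0.450 to 1.38). By Swiss-Prot name, no unigene with an assigned gene was annotated as TTG1, the WD40 partner of these proteins. Its presence under other annotation was not searched.

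*bHLH95* had fewer reads in yellow seeds in each of the 3 genes that carried the name, by less than 2-fold. In Arabidopsis, ZHOUPI is made in the endosperm and is needed for its breakdown as the embryo grows, acting with ICE1. The unigene comp42404_c0 had 693 reads in yellow against 993 in brown seeds, a ratio of 0.708 (0.642 to 0.781) with an adjusted p of 7.97e-11 by Fisher's exact test. The unigene comp41327_c0 on A05 had 126 reads in yellow against 172 in brown seeds (ratio 0.743, 0.586 to 0.941), and comp7490_c0 had 50 in yellow and 66 in brown seeds (ratio 0.769, 0.521 to 1.13). The summed ratio was 0.716 (0.656 to 0.782), and none of the 3 passed the 2-fold threshold.

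**Figure D4:**
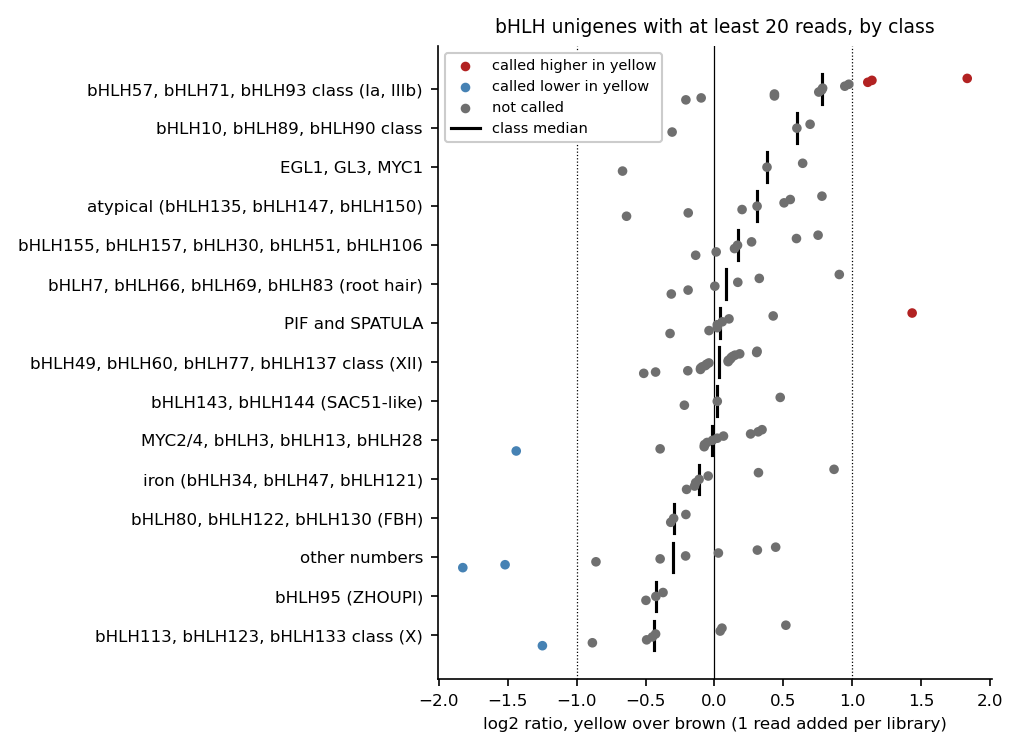
Log2 ratio of yellow over brown reads, with 1 read added per library, for the 107 bHLH unigenes with at least 20 reads, 1 point per unigene, by class, with a vertical bar at each class median and dotted lines at 2-fold. The *bHLH57*, *bHLH71* and *bHLH93* class has the highest median at 0.78, and the 3 *bHLH95* unigenes lie together on the left of 0.

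The members called lower in yellow seeds were mostly scarce. *bHLH123* comp49405_c0 on C05 (31907466 to 31910010) had the most reads, 50 in yellow and 122 in brown seeds, with an RPKM of 1.22 in yellow and 2.93 in brown seeds. The ratio was 0.416 (0.293 to 0.582), with an adjusted p of 1.28e-06 by Fisher's exact test. A second *bHLH123* gene, on A03, had 4 reads in yellow against 14 in brown seeds in comp40152_c0 (ratio 0.290, 0.0695 to 0.923, adjusted p = 0.137 by the same exact test). Both genes therefore had fewer reads in the yellow library, although the second was not called.

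*bHLH92*, a factor induced by salt and osmotic stress, had fewer reads in yellow seeds in each of its 3 unigenes. Both unigenes of the gene on C07 (23386461 to 23390591) were called: comp34489_c0 had 10 reads in yellow against 31 in brown seeds, and comp37274_c0 had 4 in yellow and 17 in brown seeds. Summed over the gene, 14 reads in yellow against 48 in brown seeds gave a ratio of 0.296 (0.151 to 0.546) with an adjusted p of 0.000234 by Fisher's exact test on reads summed per gene. A second *bHLH92* gene, in comp40978_c0, had 62 reads in yellow against 115 in brown seeds (ratio 0.547, 0.395 to 0.751), short of the 2-fold threshold.

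The other calls rested on short fragments without a read in a library. *bHLH74* comp198577_c0 on C04 (23476963 to 23478324), 392 bp long, had no read in yellow and 13 in brown seeds, a ratio of at most 0.234 with 3 reads in place of 0, or 0.333 at the upper 95% limit (adjusted p = 0.00266 by Fisher's exact test), while the unigenes of 2 other *bHLH74* genes had 127 and 73 reads in yellow and 104 and 69 in brown seeds. *bHLH147* comp13471_c0 on A01 (19162852 to 19163496) had no read in yellow and 9 in brown seeds, a ratio of at most 0.338 with 3 reads in place of 0, or 0.514 at the upper 95% limit (adjusted p = 0.0285 by the same exact test). *bHLH147*, an atypical factor that acts in brassinosteroid signalling, had 2 further genes at higher levels. Of these, comp45492_c0 on C07 had 189 reads in yellow against 299 in brown seeds (ratio 0.641, 0.532 to 0.772), and comp44939_c0 on C05 had 291 in yellow and 337 in brown seeds. In the opposite direction, *bHLH51* comp249876_c0 on A04 (17504508 to 17505946) had 7 reads in yellow and none in brown seeds, at least 2.37-fold higher with 3 reads in place of 0, or 1.46-fold at the lower 95% limit (adjusted p = 0.0481 by Fisher's exact test), a call lost under median-ratio scaling and under the DEGseq formula. For *bHLH74* and *bHLH147*, then, the call concerned a copy that contributed few of the reads under its name, and *bHLH51* had no other member.

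Copies under one name did not always move together. *bHLH113* had 4 unigenes from 4 genes: comp44644_c0 on C05 (719 reads in yellow against 981 in brown seeds) and comp47267_c0 on A05 (266 in yellow and 369 in brown seeds) were lower in yellow seeds with ratios of 0.744 and 0.731, while comp48999_c0, also on C05, had 485 reads in yellow against 343 in brown seeds, a ratio of 1.44 (1.25 to 1.65). All of these passed an adjusted p of 0.05 by Fisher's exact test without passing the fold. The fourth, comp35404_c0, had 7 reads in yellow against 14 in brown seeds. *bHLH155* differed likewise among its 4 genes, from 0.909 (0.717 to 1.15) in comp16762_c0 to 1.69 (1.39 to 2.06) in comp50583_c0. *bHLH69* had one gene at 1.00 (0.833 to 1.21), in comp47725_c0, and another at 1.89 (1.30 to 2.78), in comp45261_c0. In contrast, 6 of the 7 *bHLH77* unigenes had ratios between 0.932 and 1.14 with intervals that included 1, and the seventh, comp184500_c0, had 3 reads in yellow against 7 in brown seeds.

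The remaining classes had summed ratios between 0.822 and 1.29, apart from the single *bHLH19* unigene with no read in yellow and 7 in brown seeds. The highest was that of *bHLH143* and *bHLH144*, at 1.29 (1.20 to 1.40), to which *bHLH144* gave 1324 of 1546 reads in yellow and 964 of 1213 in brown seeds. The class of *bHLH10*, *bHLH89* and *bHLH90*, with 239 reads in yellow against 193 in brown seeds, had 1.26 (1.04 to 1.53), and that of *bHLH7*, *bHLH66*, *bHLH69* and *bHLH83* had 1.09 (1.03 to 1.15). The atypical factors around *bHLH135*, *bHLH147* and *bHLH150* had 0.875 (0.788 to 0.970), and the class of *bHLH113* and *bHLH123* had 0.895 (0.847 to 0.946). The unigenes of numbers placed in no class, *bHLH92* among them, summed to 0.894 (0.786 to 1.02). The *bHLH155* and *bHLH157* class with *bHLH30*, *bHLH51* and *bHLH106*, relatives of the factors that drive vascular cell divisions, had a summed ratio of 1.15 (1.10 to 1.21), with 6 of 7 unigenes of at least 20 reads above 1. *LHW*, named by function and so no member, had 1283 reads in yellow against 988 in brown seeds in comp53427_c0 (ratio 1.32, 1.21 to 1.43). The iron response factors, among them *bHLH34*, *bHLH47* (POPEYE), *bHLH115* and *bHLH121*, summed to 1722 reads in yellow against 1922 in brown seeds (ratio 0.909, 0.851 to 0.971), and none of the 9 unigenes was called or passed the adjusted p. The flowering factors of the FBH class, *bHLH80*, *bHLH122* and *bHLH130*, had a summed ratio of 0.822 (0.758 to 0.891), with each of the 3 unigenes of at least 20 reads below 1. The largest class, of 20 unigenes around *bHLH49*, *bHLH77* and *bHLH137*, had a median log2 ratio of 0.03 and a summed ratio of 0.926 (0.894 to 0.959). Since *bHLH137* alone gave 1146 of its 5909 reads in yellow and 1660 of its 6474 in brown seeds, the sum lay lower than the median. DELLA proteins, which bind PIF and other bHLH factors and hold them inactive, had 6 unigenes, none called by Fisher's exact test at the 2-fold threshold. Their median log2 ratio was 0.51. *RGA2* comp53515_c0 had 3018 reads in yellow against 2200 in brown seeds (ratio 1.39, 1.32 to 1.47). *RGL2* comp45862_c0 had 476 in yellow and 296 in brown seeds (ratio 1.63, 1.41 to 1.89). An *RGL1* unigene, comp42861_c0, went the other way with 28 in yellow and 38 in brown seeds (ratio 0.748, 0.442 to 1.25).

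Of the 141 unigenes, 56 were assigned to A chromosomes, 71 to C chromosomes and 14 to sequence without a chromosome. The median log2 ratio of those with at least 20 reads was 0.00 on A (42 unigenes) and 0.06 on C chromosomes (53 unigenes). Their length ranged from 203 to 3647 bp with a median of 841 bp, and 33 of them were fragments of 15 genes with more than 1 unigene. Beside the 11 called, 12 members were higher and 9 lower in yellow seeds at an adjusted p under 0.05 by Fisher's exact test and within 2-fold, where 8.2% and 9.29% of all unigenes with an assigned gene were higher and lower. At any fold, 17 members were higher and 15 lower at this adjusted p, against 10.9% higher and 10.6% lower among all unigenes with an assigned gene. With a fold threshold of 1.5 in place of 2, 12 members were called higher and 8 lower, against 4.3% higher and 2.91% lower among the same unigenes. In all, 98 of the 107 members with at least 20 reads stayed within 2-fold (91.6%, against 94.5% of all unigenes with an assigned gene and as many reads).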

How the data were processed

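RNA of whole seeds from Cy2Y and Cy2B, 1 library per line, was sequenced, and the authors assembled both libraries together with Trinity. The authors deposited estimated counts of reads per unigene, without scaling, and RPKM values, which divide each count by unigene length and library total. The table also holds the assigned gene, with positions on the *B. napus* Darmor-*bzh* genome, and the annotation as text. Which aligner and counter were used is not given in the sources used here. Because several unigenes can be fragments of 1 gene, reads were also summed per gene.

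Estimated counts were rounded to whole numbers and tested as described in the report, with Python 3.11.15 and SciPy 1.17.1, and the exact test was tested on simulated data. Intervals of ratios are 95% exact (Clopper-Pearson) intervals. DEGseq is the tool of the study's methods, with the same thresholds of adjusted p and fold. With it, the authors reported far fewer differentially expressed genes than the unigenes called here over the whole table (1650 higher and 738 lower). The reason was not tested. DEGseq could not be run, and its random sampling formula was coded again as an alternative. Other alternatives were TMM scaling and an exact test with an assumed biological coefficient of variation (edgeR 4.0.16, R 4.3.3), median-ratio scaling (DESeq2 1.42.0), other thresholds, minimum reads, pseudocounts, halved counts and the RPKM values.

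Members, classes and lists were chosen with earlier results of these data known. Named unigenes are all called members, the 12 with the highest mean RPKM, the 5 highest and 5 lowest log2 ratios among those with at least 20 reads, and all members of the PIF, jasmonate and epidermal classes with at least 20 reads. Others were picked after their values were seen. No sequences are shown.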

Additional observations from a re-analysis of the deposited data

How the results depend on the processing

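The 5 members called higher and 6 called lower became 12 higher and 8 lower at a fold threshold of 1.5 (4.3% higher and 2.91% lower among all unigenes with an assigned gene), and 17 higher and 15 lower with no fold threshold (10.9% higher and 10.6% lower). With counts halved, 4 were called higher and 1 lower. With at least 100 reads, a minimum chosen after seeing the data, 4 were called higher and 1 lower. The shares called among all unigenes were not counted at these settings. In edgeR's exact test, an assumed coefficient of variation of 0.1 left 4 higher and 2 lower, and 0.4 left 0 higher and 0 lower. A coefficient of 0.2 left 1 higher and 0 lower, against 0.518% higher and 0.136% lower among all unigenes with an assigned gene. Such shares were not counted for 0.1 or 0.4. TMM scaling and the inclusion of unigenes without an assigned gene left 5 higher and 6 lower. Median-ratio scaling and the DEGseq formula each left 4 higher and 6 lower. Sums per gene left 5 higher and 5 lower, and a minimum of 20 reads left 4 higher and 4 lower. Shares over all unigenes were not counted for these either. The log2 ratio of the summed reads was 0.02, and -0.0025 without the 3 unigenes with the most reads. No called unigene changed direction under any alternative run. Of the 11 called unigenes, 10 lost their call with an assumed coefficient of variation of 0.2, and *bHLH51* lost it also under the DEGseq formula and under median-ratio scaling. No paired analysis was possible because each line had 1 library, and for the same reason no library could be left out. Depth limits most members called lower, of which 5 had 43 reads or fewer in all.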

Other observations

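Another 13 unigenes matched the same protein names but had no assigned *B. napus* gene, and none was called by Fisher's exact test at the 2-fold threshold. The most abundant, *bHLH96* comp52281_c0, is of the same class as *bHLH71* and had 440 reads in yellow against 244 in brown seeds, a ratio of 1.83 with an adjusted p of 5.19e-13 by Fisher's exact test. A *bHLH51* unigene of this kind, comp25875_c0, had 150 reads in yellow against 107 in brown seeds (ratio 1.42).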
